A study of Mus musculus with 20 samples.

Results

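The genes described are the 10 core components of the transforming growth factor beta (TGF-beta) pathway in the mouse, taken from a fixed list of symbols. They are 3 ligands (Tgfb1, Tgfb2 and Tgfb3), 3 receptors (Tgfbr1, Tgfbr2 and Tgfbr3) and 4 SMADs (Smad2, Smad3, Smad4 and Smad7). All 10 were found among the 20636 genes of the deposited table, and all 10 passed the minimum level, as did 16648 genes in all. RNA came from whole pancreatic ductal adenocarcinomas. Every mouse carried a Rosa26LSL-tdTomato reporter and Ptf1aCreER, which places tamoxifen-inducible Cre in cells that express the acinar gene Ptf1a. KPT mice carried Trp53fl/fl as well, KAT mice carried Cdkn2A-Arf fl/fl, and KPAT mice carried both floxed alleles. Mice received 5 mg of tamoxifen by gavage daily for 3 days, starting when they were 8 to 10 weeks old, and were then kept until they became ill. Each group holds 5 tumours, numbered separately in the labels. The labels do not say whether each tumour came from its own mouse, so p-values measure the spread between these tumours. A further 5 samples of the series (KT, without either floxed suppressor) are not analysed here.

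TGF-beta ligands are secreted in a latent form, bound to the extracellular matrix, and act only after release. The free ligand brings together the type II receptor, encoded by Tgfbr2, and the type I receptor, encoded by Tgfbr1. The type I receptor phosphorylates SMAD2 and SMAD3, which enter the nucleus with SMAD4 and regulate transcription, while SMAD7 is a feedback inhibitor of the receptor. In pancreatic cancer the pathway is known both for restraining the growth of epithelial cells and for activating fibroblasts, and SMAD4 is often lost in the human disease.

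The 15 libraries held 14696138 to 26248484 gene-assigned reads, and each member was covered by at least 100 reads in every tumour. Trp53 averaged 24.3 ± 1.78 (SD, n = 5) in KPT, 41.9 ± 9.53 (SD, n = 5) in KPAT and 125 ± 20.03 (SD, n = 5) in KAT. It was thus lowest in both groups in which it was floxed. Cdkn2a did not separate the groups: KPT tumours ran from 216 to 335, those labelled KAT from 150 to 690 and those labelled KPAT from 268 to 907. Its value counts the whole gene, and the floxed segment is not given in the labels, so it does not check the Cdkn2A-Arf labels. Markers of ductal and epithelial cells were expressed in all 15 tumours, with all 8 genes above 0 in each. KAT 4 and KAT 5 were closer to each other (chi-square per degree of freedom 17.6) than any other pair within a group (53.2 or more), although they differed by more than counting noise.

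Of the 10 members, 3 passed the test as higher in KPAT than in KPT tumours, namely Tgfb2, Tgfb3 and Tgfbr2, and none as lower. The same 3 genes passed as higher in KAT against KPT, again with none lower. Over all tested genes, 9.13% were called higher and 7.4% lower in KPAT against KPT, and 15.6% higher and 13.3% lower in KAT against KPT. The median log2 fold change of the 10 members was 0.49 in KPAT and 0.65 in KAT against KPT, beside 0.02 and 0.03 over all tested genes. In KPAT against KAT no member was called (limma with Benjamini-Hochberg adjustment), and none was called by edgeR or DESeq2 either; 1 member, Tgfbr3, had an unadjusted p under 0.05 in limma. That comparison called 0.036% of all genes higher and 0.012% lower. In the comparisons with KPT, 5 of the 10 members for KPAT and 7 of the 10 for KAT had an unadjusted p under 0.05 (limma). Over all genes this held for 5368 and 6857 of the 16648 tested. On the deposited scale without a common multiplier, which tests 10506 genes, KAT against KPT gave 1382 higher and 1908 lower calls, beside 2599 and 2206. Both comparisons with KPT use the same 5 KPT tumours, so they are not independent of each other.

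**Figure D1:**
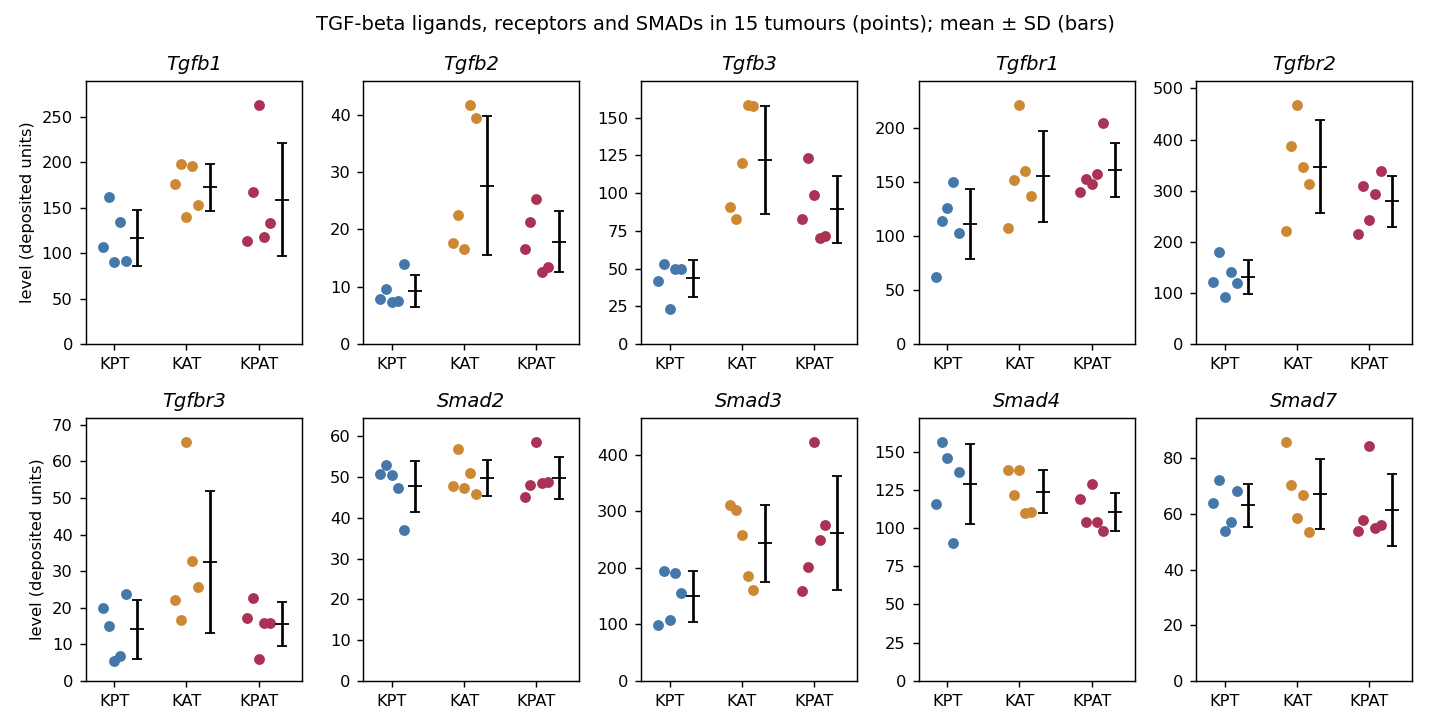
Level of each of the 10 genes (y axis, deposited normalised read counts, linear from 0) in the 5 KPT, 5 KAT and 5 KPAT tumours (x axis); points are tumours, black bars the mean ± SD. Tgfb3 and Tgfbr2 lie higher in every KAT and KPAT tumour than in every KPT tumour, whereas Smad2, Smad4 and Smad7 overlap throughout.

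Start-site regions of Tgfb1, Tgfb2, Tgfbr1, Tgfbr2 and Smad3 were matched by symbol in RefSeq. Those of Tgfb2 and Tgfbr2, which were called together, are shown with that of Tgfb1, a ligand that was not called, so that they can be compared. Each runs from 250 bases before to 50 bases after the annotated start (RefSeq, GRCm38.p6), 5′ to 3′ on the gene's strand. Capitals mark matches on either strand to CCAAT, to the E-box CACGTG or to the GC box GGGCGG. The Tgfb2 region is chr1:186705940-186706239 on the minus strand, that of Tgfbr2 chr9:116175314-116175613 on the minus strand, and that of Tgfb1 chr7:25686752-25687051 on the plus strand.
Tgfb2: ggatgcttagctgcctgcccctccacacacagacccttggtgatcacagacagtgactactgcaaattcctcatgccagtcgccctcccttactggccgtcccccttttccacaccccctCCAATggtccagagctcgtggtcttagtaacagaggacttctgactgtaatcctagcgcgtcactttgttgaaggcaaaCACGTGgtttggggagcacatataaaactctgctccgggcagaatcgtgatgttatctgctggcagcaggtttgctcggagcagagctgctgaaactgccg
Tgfbr2: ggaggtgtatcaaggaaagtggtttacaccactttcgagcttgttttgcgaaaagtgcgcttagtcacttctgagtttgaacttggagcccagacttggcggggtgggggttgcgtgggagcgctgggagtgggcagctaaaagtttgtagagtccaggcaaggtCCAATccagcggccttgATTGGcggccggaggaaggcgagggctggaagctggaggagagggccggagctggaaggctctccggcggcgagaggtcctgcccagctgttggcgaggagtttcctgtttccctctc
Tgfb1: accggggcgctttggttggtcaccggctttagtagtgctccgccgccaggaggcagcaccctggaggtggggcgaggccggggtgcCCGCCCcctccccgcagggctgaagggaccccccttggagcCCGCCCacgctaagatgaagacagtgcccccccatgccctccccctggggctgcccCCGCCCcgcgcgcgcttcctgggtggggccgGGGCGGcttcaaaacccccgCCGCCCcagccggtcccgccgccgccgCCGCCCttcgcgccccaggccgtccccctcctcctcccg
The Tgfb2 region holds 1 CCAAT match and 1 CACGTG match, the Tgfbr2 region 2 CCAAT matches, and neither holds GGGCGG. The Tgfb1 region holds 6 GGGCGG matches and neither of the other 2 motifs. Tgfbr1, which was not called either, holds 2 CCAAT and 2 GGGCGG matches in its region at chr4:47352972-47353271 (not shown). The Smad3 region, also of a gene not called, holds 2 GGGCGG matches. CCAAT was thus not particular to the called genes. Tgfb3, which was called with Tgfb2 and Tgfbr2, had no region among those matched. Among 32851 mouse regions of this length, 37.4% hold CCAAT, 35.7% GGGCGG and 7.15% CACGTG. The cyclic AMP element TGACGTCA (1.79% of regions), the AP-1 site TGANTCA (7.81%) and the SMAD palindrome GTCTAGAC (0.213%) have no match in the 3 regions. The motifs do not overlap one another in these sequences, and a match describes letters only.

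Among the ligands, Tgfb3, which encodes TGF-beta 3, was at 41.6, 53.3, 23.1, 49.9 and 50.03 in KPT tumours 1 to 5. It was at 90.5, 82.6, 120.0, 158 and 158 in KAT and at 82.9, 123, 98.8, 70.4 and 71.5 in KPAT. Every KAT and every KPAT tumour was above every KPT tumour, KAT 4 and KAT 5 were highest, and KPT 3 was lowest. The mean rose 2.05 times in KPAT (log2 fold change 1.06 ± 0.25 SE, adjusted p = 0.0124, limma) and 2.79 times in KAT (1.49 ± 0.25, adjusted p = 0.000979, limma). Without KAT 4 and KAT 5 the KAT difference was 1.20 with adjusted p = 0.0134 (limma).

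Tgfb2, which encodes TGF-beta 2, was at 7.83, 9.66, 7.34, 7.57 and 14.0 in KPT. It was at 17.6, 22.6, 16.6, 41.7 and 39.5 in KAT and at 16.7, 21.4, 25.3, 12.6 and 13.5 in KPAT. All 5 KAT tumours were above all KPT tumours, with KAT 4 and KAT 5 far above the others. KPAT 4 and KPAT 5 lay below KPT 5, so those groups overlapped. The KAT tumours averaged 2.97 times the KPT level (1.5 ± 0.29 SE on the log2 scale, adjusted p = 0.00229, limma), and 1.06 with adjusted p = 0.0238 (limma) without KAT 4 and KAT 5. The KPAT mean was 1.93 times that of KPT (0.94 ± 0.29, adjusted p = 0.0407, limma). This last call lay close to the threshold and was lost when any of KPT 1, KPT 2, KPT 3, KPT 4, KPAT 1, KPAT 2 or KPAT 3 was left out, with an adjusted p of up to 0.0971 (limma).

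Tgfb1, which encodes TGF-beta 1, was at 107, 162, 90.1, 134 and 91.2 in KPT. It was at 176, 198, 139.5, 196 and 153 in KAT and at 114, 168, 263, 118 and 133 in KPAT. KPT 2 reached into the range of both other groups, and KPAT 3 was higher than all other tumours. Its log2 fold change was 0.41 ± 0.22 (SE) in KPAT (adjusted p = 0.222, limma) and 0.59 ± 0.22 in KAT (adjusted p = 0.0601, limma). The KAT value passed when KPT 2 or KPAT 3 was left out, with a lowest adjusted p of 0.0231 (limma). It also passed when only KPT and KAT were fitted.

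Levels of different genes were compared per kilobase of exon. On that scale the summed ligand level was 37.7 ± 8.87 (SD, n = 5) in KPT, 75.0 ± 12.6 in KAT and 61.1 ± 17.5 in KPAT. Tgfb1 made up 61.6% ± 6.51 of the sum in KPT, 46.4% ± 9.20 in KAT and 50.9% ± 6.50 in KPAT. Tgfb3 made up 34.0% ± 5.65, 47.4% ± 8.36 and 44.0% ± 6.32 in the same order, and Tgfb2 4.41% ± 1.53, 6.15% ± 1.73 and 5.05% ± 0.442. Tgfb2 was thus the least abundant ligand transcript in each group, while Tgfb1 and Tgfb3 were at similar levels in KAT and KPAT. These shares are a description and were not tested.

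**Figure D2:**
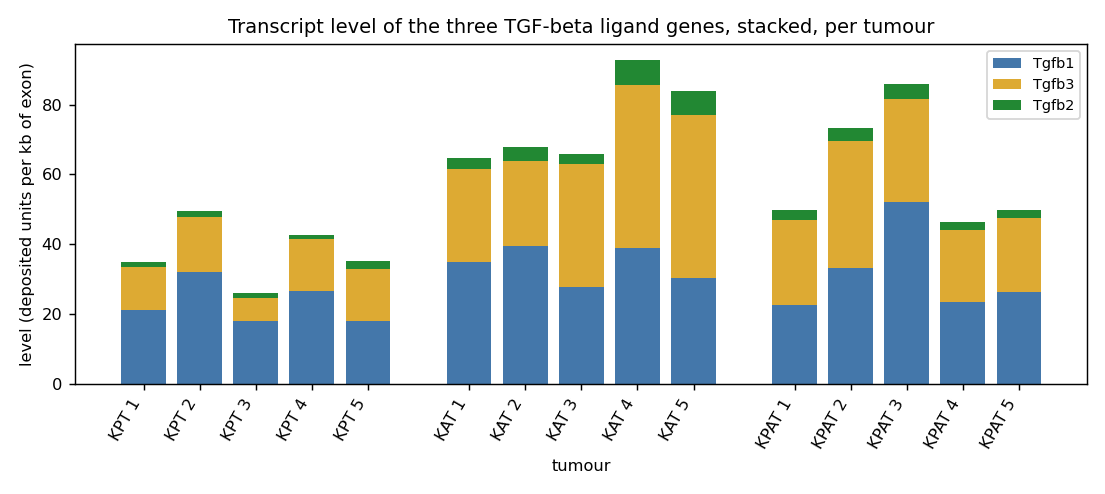
Level per kilobase of exon (y axis, deposited units per kb, from 0) of Tgfb1, Tgfb3 and Tgfb2, stacked, in each of the 15 tumours (x axis). The summed ligand level ran from 26.0 to 49.5 in KPT tumours, from 64.6 to 92.8 in KAT and from 46.3 to 85.8 in KPAT.

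Among the receptors, Tgfbr2, the ligand-binding type II receptor, was at 121, 180.3, 92.2, 142 and 119 in KPT. It was at 222, 388, 468, 347 and 312 in KAT and at 215, 309, 242, 294 and 338 in KPAT. Neither group overlapped with KPT, and KAT 3 was highest and KPT 3 lowest. The mean rose 2.14 times in KPAT (log2 fold change 1.11 ± 0.20 SE, adjusted p = 0.00436, limma) and 2.65 times in KAT (1.40 ± 0.20, adjusted p = 0.000423, limma). Among the members, 2 (Tgfb3 and Tgfbr2) had every KPAT tumour above every KPT tumour, against 5.03% of all tested genes, and 3 had every KAT tumour above every KPT tumour, against 9.24%.

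Tgfbr1, the type I receptor kinase, was at 62.5, 114, 126, 149.6 and 103 in KPT. It was at 108, 152, 221, 160.2 and 137 in KAT and at 141, 153, 148, 158 and 205 in KPAT. KPT 4 reached into the range of both other groups, and KAT 1 lay among the KPT tumours. Its log2 fold changes were 0.58 ± 0.22 (SE) in KPAT (adjusted p = 0.0809, limma) and 0.50 ± 0.22 in KAT (adjusted p = 0.0958, limma). Both passed when KPT 4 was left out (0.0407 and 0.0479, limma), and the KAT value also passed without KAT 1. Per kilobase, the ratio of Tgfbr2 to Tgfbr1 was 1.01 ± 0.387 (SD, n = 5) in KPT, 1.79 ± 0.155 in KAT and 1.39 ± 0.158 in KPAT, given as a description.

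Tgfbr3, the co-receptor betaglycan, which presents ligand to the signalling receptors, was at 19.96, 15.03, 5.40, 6.69 and 23.8 in KPT. It was at 22.0, 16.8, 65.4, 32.9 and 25.6 in KAT and at 17.1, 22.6, 5.94, 15.8 and 15.9 in KPAT. KAT 3 was far above all other tumours, and the 3 groups overlapped. The log2 fold change was 0.23 ± 0.47 (SE) in KPAT (adjusted p = 0.771, limma), 1.26 ± 0.47 in KAT (adjusted p = 0.0554, limma) and -1.03 ± 0.47 in KPAT against KAT (adjusted p = 0.448, limma). The KAT value passed without KPT 1, KPT 5, KAT 2 or KPAT 3, with a lowest adjusted p of 0.0315 (limma). It also passed with array weights and with DESeq2.

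The receptor-activated SMADs differed from each other in spread. Smad3 was at 99.7, 194, 107, 191 and 156 in KPT. It was at 311, 302, 257, 185 and 162 in KAT and at 159, 200.6, 423, 248 and 275 in KPAT. KPT 2 and KPT 4 reached into both other groups, and KPAT 3 was highest. It averaged 1.74 times the KPT level in KPAT (0.78 ± 0.27 SE on the log2 scale, adjusted p = 0.0636, limma) and 1.63 times in KAT (0.71 ± 0.27, adjusted p = 0.0632, limma). Neither passed, although the KPAT value passed without KPT 4 or KPAT 1 (lowest adjusted p = 0.0340, limma) and the KAT value without KAT 5 or KPAT 3 (0.0415, limma). With DESeq2 both passed (adjusted p = 0.0270 and 0.0420), and without KAT 4 and KAT 5 the KAT value was 1.00 (adjusted p = 0.0377, limma).

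Smad2, the other receptor-activated SMAD, was at 50.8, 52.9, 50.5, 47.4 and 37.0 in KPT, at 47.7, 56.9, 47.4, 51.1 and 46.0 in KAT, and at 45.1, 48.0, 58.7, 48.6 and 48.7 in KPAT. Its groups overlapped almost entirely, and the log2 fold change was 0.07 ± 0.11 (SE) in both comparisons with KPT (adjusted p = 0.720 in KPAT and 0.680 in KAT, limma). The ratio of Smad3 to Smad2 per kilobase was 5.07 ± 1.71 (SD, n = 5) in KPT, 7.73 ± 2.03 in KAT and 8.13 ± 2.24 in KPAT.

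Smad4, the shared partner of both, was at 116, 156, 146, 90.4 and 137 in KPT, at 138, 122, 138, 110.0 and 111 in KAT, and at 119, 104, 129, 104 and 98.4 in KPAT. No tumour stood near 0, and the lowest, KPT 4, was at 90.4. The log2 fold change was -0.20 ± 0.14 (SE) in KPAT (adjusted p = 0.346, limma) and -0.04 ± 0.14 in KAT (adjusted p = 0.853, limma). Smad7, the inhibitory SMAD and itself a target of the pathway, was at 63.8, 72.2, 53.8, 57.0 and 68.4 in KPT. It was at 85.9, 70.4, 58.6, 66.9 and 53.3 in KAT and at 54.0, 57.9, 84.2, 54.9 and 56.0 in KPAT. The groups overlapped, and its log2 fold change was -0.05 ± 0.15 (SE) in KPAT (adjusted p = 0.848, limma) and 0.08 ± 0.15 in KAT (adjusted p = 0.727, limma). Per kilobase the ratio of Smad7 to Smad3 was 0.551 ± 0.160 (SD, n = 5) in KPT, 0.350 ± 0.0723 in KAT and 0.307 ± 0.0757 in KPAT, as a description.

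**Figure D3:**
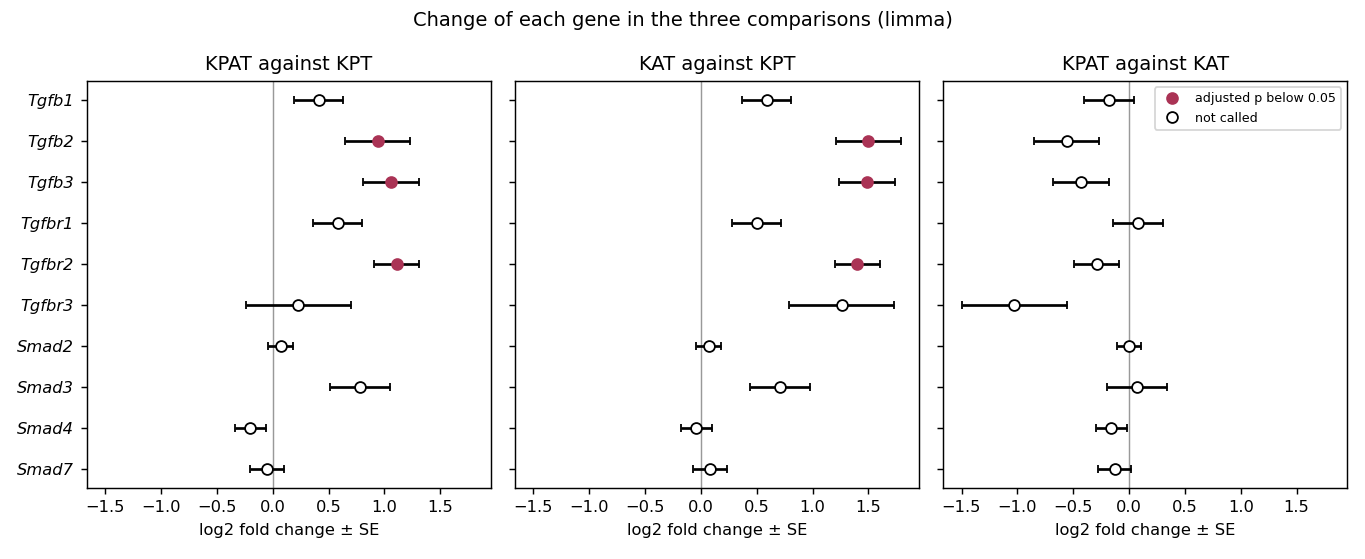
Log2 fold change ± SE (x axis) of each member (y axis) in KPAT against KPT, KAT against KPT and KPAT against KAT; filled points have an adjusted p below 0.05 (limma), open points do not. Tgfb2, Tgfb3 and Tgfbr2 are the 3 filled genes in both comparisons with KPT, and the third comparison has none.

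The order of the genes by mean level per kilobase differed between groups. In KPT Smad4 was highest at 34.8 ± 7.07 (SD, n = 5), followed by Smad3 at 27.0 ± 8.09, Tgfb1 at 23.2 ± 6.09, Tgfbr1 at 17.0 ± 4.93, Tgfbr2 at 16 ± 4.00, Smad7 at 13.9 ± 1.69 and Tgfb3 at 12.9 ± 3.62. In KAT Smad3 at 43.9 ± 12.2 and Tgfbr2 at 42.4 ± 11.1 led, and Tgfb3 at 36.0 ± 10.6, Tgfb1 at 34.2 ± 5.14 and Smad4 at 33.3 ± 3.76 followed. In KPAT Smad3 at 47.1 ± 18.2 and Tgfbr2 at 34.2 ± 6.11 led as well, ahead of Tgfb1 at 31.5 ± 12.3, Smad4 at 29.8 ± 3.38 and Tgfb3 at 26.4 ± 6.56. Neighbours in these orders differed by less than 1 SD of the more variable gene, except Tgfb1 and Tgfbr1 in KPT. Smad2, Tgfbr3 and Tgfb2 were the 3 lowest in each group, with means between 1.60 and 5.68. Exons of other annotated genes overlap a small part of those of Tgfb2 (2.14% with an antisense gene), Tgfb3 (7.6% and 4.82%) and Tgfbr3 (4.54%). How strand was handled in counting is not given in the sources used here.

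In bulk tumour RNA, fewer cells of a type and less RNA per cell cannot be told apart. Markers of fibroblasts, of macrophages and of endothelial cells were among the genes called higher in KPAT and KAT, as were the called members. All 10 fibroblast markers were detected in every tumour, and they summed to 911 to 4040 in KPT tumours, against 6500 to 9560 for KAT and 4930 to 13800 for KPAT, which did not overlap with KPT. Of these 10 markers, 6 were called higher in KPAT and 10 in KAT. Among all genes, 9.13% and 15.6% were called higher and 7.4% and 13.3% lower. Macrophage and monocyte markers summed to 526 to 955 (KPT), 1480 to 2800 (KAT) and 797 to 1680 (KPAT), with 4 of 8 called higher in KPAT and 6 in KAT. Endothelial markers summed to 130.2 to 232, 167 to 505 and 190.0 to 349 in that order, with 2 of 7 called higher in KPAT and 4 in KAT. Ductal and epithelial markers summed to 10200 to 17400, 6910 to 11600 and 7540 to 10500 in KPT, KAT and KPAT, with 1 of 8 called lower in KPAT and 3 in KAT. Without KAT 4 and KAT 5, 4 rather than 10 fibroblast markers and 1 rather than 3 ductal markers were called in KAT. Calls in KAT over all genes fell from 4805 to 2448 in that fit. Acinar, lymphocyte and platelet markers overlapped between all groups, with 1 of 6 lymphocyte markers called higher and 1 of 4 platelet markers lower in KAT.

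With the fibroblast marker level in the model, none of the 3 called members passed in either comparison with KPT. Tgfb3 then had a log2 fold change of 0.38 in KPAT (adjusted p = 0.486, limma) and 0.67 in KAT (adjusted p = 0.246, limma). Tgfbr2 had 0.60 (adjusted p = 0.194, limma) and 0.78 (adjusted p = 0.122, limma), and Tgfb2 had 0.63 (adjusted p = 0.419, limma) and 1.13 (adjusted p = 0.180, limma). In that model 382 of all genes (2.29%) were called in KPAT and 690 (4.14%) in KAT against KPT, beside 2752 and 4805 without it. With the macrophage level none of the 3 passed either, and 242 and 9 genes were called in all. Tgfbr2 was then at 1.23 ± 0.32 (SE) in KPAT and 1.60 ± 0.46 in KAT, above its differences without that level but with larger errors. Tgfb3 was at 0.79 and 1.03, and Tgfb2 at 0.15 and 0.16. With the endothelial level only Tgfbr2 remained called among the 3, with 1.05 in KPAT (adjusted p = 0.0194, limma) and 1.31 in KAT (adjusted p = 0.0188, limma). With the endothelial level Smad3 passed as well, at 1.17 (adjusted p = 0.0200, limma) and 1.32 (adjusted p = 0.0276, limma). With the ductal level Tgfbr2 passed in KPAT (adjusted p = 0.0345, limma), and all 3 passed in KAT. Tgfb3 and Tgfb2 did not pass in KPAT in that model, at 1.06 ± 0.31 (SE) and 1.01 ± 0.36, against 1.06 ± 0.25 and 0.94 ± 0.29 without the ductal level. Every KAT tumour lay above every KPT tumour in both the fibroblast and the macrophage level. The KPAT tumours did so too, except KPAT 3 in the fibroblast level and KPAT 5 in the macrophage level. Fits with these levels therefore cannot separate the group from the makeup of the tumours. The fibroblast markers also include Col1a1 and Col3a1, which are among the genes that TGF-beta induces. What part the makeup of the tumours has in the members' differences was not tested.

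**Figure D4:**
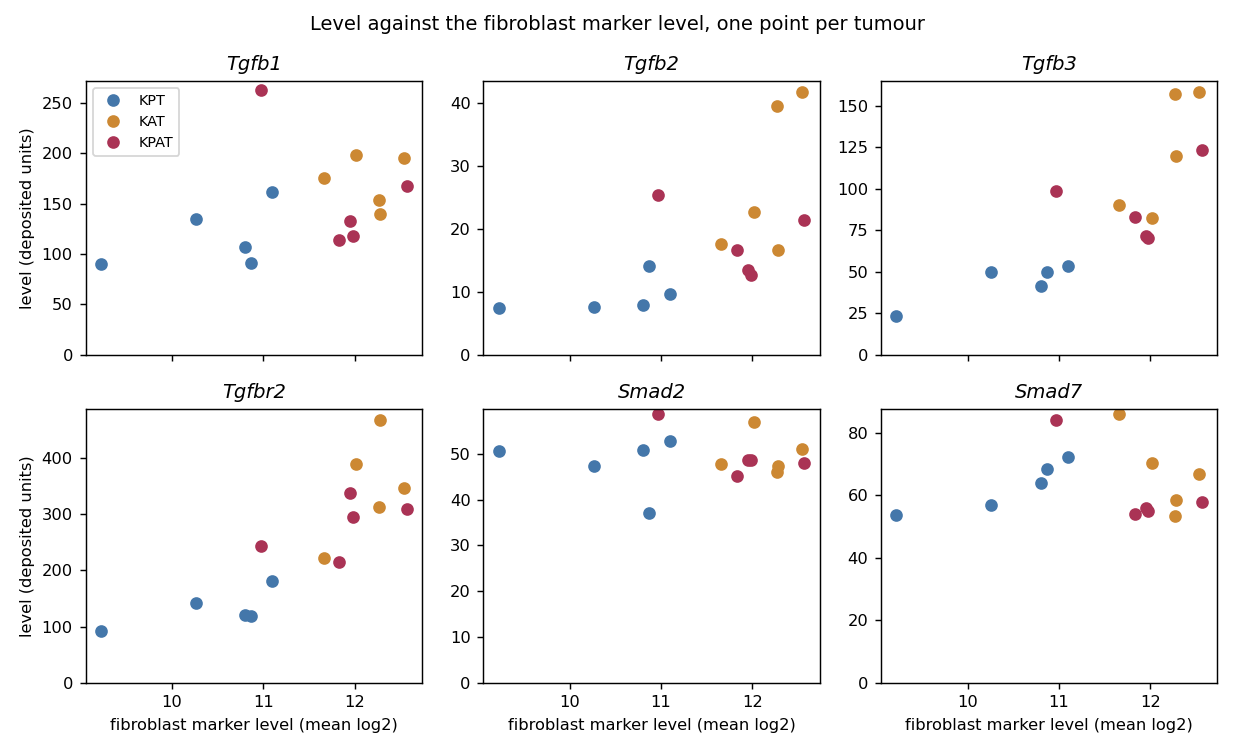
Level of 6 members (y axis, deposited units) against the mean log2 level of 10 fibroblast markers (x axis), 1 point per tumour, coloured by group. KPT tumours lie at 9.22 to 11.1 on the x axis, and all KAT and KPAT tumours but KPAT 3, at 10.97, lie above 11.1.

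KPAT 3 had the lowest fibroblast level of the KPAT tumours and the highest KPAT values of Tgfb1, Tgfb2 and all 4 SMADs, while its Tgfbr3 level was the lowest in that group. KPT 3, the tumour with the lowest fibroblast level, also had the lowest values of all 3 ligands, Tgfbr2 and Tgfbr3 among the 15.

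Over the tumours, after group means were subtracted, the genes most like Tgfb3 included Sv2c and Fmod, the gene of the collagen-binding proteoglycan fibromodulin (Pearson r 0.92 each, n = 15). Tgfb2 was most like Tbc1d1 and Ripk2 (r 0.91) and Gpr84 (r 0.90), and Tgfbr2 was most like Ror1 (0.90), Masp1 (0.89) and Zfp651 (0.88). Gpr84 averaged only 0.171, 0.817 and 0.670 deposited units in KPT, KAT and KPAT, and Sv2c 0.429 in KPT, so their values are near the floor. All these genes were picked for the highest r among the tested protein-coding genes. The correlations are descriptions, as the tumours share their libraries' depth and their cell makeup.

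Other pathway genes were taken by role. Thbs1, Ltbp2, Pmepa1, Bambi, Skil, Ldlrad4 and Smad6 stand both among the genes that TGF-beta induces and in another list. The counts of the lists are therefore not separate. Of 21 genes that hold TGF-beta latent or release it, 9 were called higher in KPAT and 13 in KAT, with none lower, and their median log2 fold changes were 0.81 and 1.01. Over all tested genes, 9.13% were called higher in KPAT and 15.6% in KAT. Fbn1, the microfibril protein fibrillin-1 to which latent complexes attach, averaged 106 ± 48.3 (SD, n = 5) in KPT, 369 ± 151 in KPAT and 417 ± 99.0 in KAT (log2 fold changes 1.91 and 2.13, adjusted p = 0.00517 and 0.00105, limma). An opposite-strand gene, Gm9913, shares 20.1% of the exon bases of Fbn1. Nrros, which tethers latent TGF-beta on myeloid cells, rose by 1.28 in KPAT (adjusted p = 0.00730, limma) and 2.05 in KAT (adjusted p = 0.000239, limma). Thbs1, the activator thrombospondin-1, rose by 1.37 and 1.39 (adjusted p = 0.00801 and 0.00323, limma), and Bmp1, a protease of the matrix, by 0.81 and 1.01 (0.0123 and 0.00178, limma). With the fibroblast level in the model, 0 of the 21 were called in KPAT and 1 in KAT, beside 2.29% and 4.14% of all genes. Thbs1 was then at 1.24 ± 0.44 (SE) and 1.23 ± 0.49 and Bmp1 at 0.91 ± 0.29 and 1.14 ± 0.32, close to or above their differences without it, whereas Fbn1 was at 0.57 and 0.51. With the macrophage level Nrros was at 0.39 in KPAT and 0.55 in KAT (adjusted p = 0.455 and 0.549, limma), and its KAT call passed under the other alternatives. Without KAT 4 and KAT 5, 7 rather than 13 were called in KAT, and without KPT 3, KAT 2 and KPAT 5, which had the most ribosomal RNA reads in an earlier analysis, 6 rather than 9 in KPAT. Calls over all genes fell as well, from 4805 to 2448 in KAT and from 2752 to 1728 in KPAT.

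Among 17 co-receptors and receptor regulators, 7 were called higher in KPAT and 9 in KAT, and 1, the receptor-binding immunophilin gene Fkbp1a, lower in KAT (-0.72, adjusted p = 0.0287, limma; named after its value was seen). Their median log2 fold changes were 0.77 and 0.79. Among all genes, 9.13% were called higher in KPAT, and 15.6% higher and 13.3% lower in KAT. Nrp1, a co-receptor that binds TGF-beta as well as VEGF, rose by 1.42 in KPAT (adjusted p = 0.00190, limma) and 1.25 in KAT (adjusted p = 0.000963, limma). Cav1, the caveolar protein caveolin-1, rose by 1.51 in KPAT (adjusted p = 0.0193, limma). Eng, the endothelial co-receptor endoglin, rose by 1.11 and 1.33 (adjusted p = 0.0219 and 0.00494, limma), the KPAT call being lost without KPAT 2 (0.0605). Acvrl1, an endothelial type I receptor, rose by 1.34 in KAT (adjusted p = 0.00391, limma). Pmepa1, a feedback inhibitor, rose by 0.59 and 0.75 (0.0229 and 0.00377, limma), the first being lost without KPT 2, KPAT 3 or KPAT 5 (up to 0.0532). The list holds Dcn, which is a fibroblast marker too. With the fibroblast level in the model, which called 2.29% and 4.14% of all genes, none of the 17 passed in either comparison. Nrp1 was then lower, at 0.96 ± 0.28 (SE) and 0.70 ± 0.31, while Pmepa1, at 0.64 ± 0.25 and 0.82 ± 0.28, was no smaller than without it. With the endothelial level Eng was at 0.45 in KPAT and 0.32 in KAT, and Acvrl1 at 0.44 in KAT, and none of these passed (adjusted p = 0.149, 0.406 and 0.301, limma). Without KPT 3, KAT 2 and KPAT 5, 2 rather than 7 were higher in KPAT, and without KAT 4 and KAT 5, 5 rather than 9 in KAT, with none lower. These fits called 1728 rather than 2752 of all genes in KPAT and 2448 rather than 4805 in KAT.

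Downstream of the receptors, the shares of called genes lay near those of all genes. Of 21 tested SMAD partners, ubiquitin ligases and co-repressors, 2 rose and 3 fell in KPAT and 4 rose and 4 fell in KAT, with medians of -0.04 and 0.02. Over all genes 9.13% rose and 7.4% fell in KPAT, and 15.6% and 13.3% in KAT. Rnf111, the ubiquitin ligase Arkadia, which removes SMAD repressors, rose by 0.69 in KPAT (adjusted p = 0.00523, limma) and 0.74 in KAT (adjusted p = 0.00134, limma). Nedd4l, a ligase that targets activated SMAD2 and SMAD3, fell by 1.1 and 0.88 on the log2 scale (adjusted p = 0.00451 and 0.00608, limma). Wwp2, a related ligase, fell by 0.50 in KPAT (adjusted p = 0.0151, limma). Ldlrad4 rose by 0.68 in KAT (adjusted p = 0.0210, limma), but it shares 52.1% of its exon bases with Fam210a on the other strand and lost the call without KAT 4 or KAT 5 (up to 0.0575). The SMADs outside the list of members gave 1 lower in KPAT, Smad1 (-0.44, adjusted p = 0.0399, limma; lost without any 1 of 8 libraries, up to 0.0904). They gave 1 higher in KAT, Smad5 (0.39, adjusted p = 0.0245, limma; lost without KAT 3 or KAT 4, up to 0.0613). Of 13 genes of the non-SMAD branch only Tab1, a partner of the kinase TAK1, was called, and it fell by 0.70 and 0.67 (adjusted p = 0.00686 and 0.00370, limma), a count near the share of all genes. With the fibroblast level in the model, which called 2.29% and 4.14% of all genes, no gene of these 3 lists passed. Rnf111 was then at 0.62 ± 0.20 (SE) and 0.66 ± 0.23 and Tab1 at -0.82 ± 0.21 and -0.82 ± 0.24, about as far from 0 as without it. Without KAT 4 and KAT 5 the SMAD partners gave 2 higher and 0 lower in KAT. Without KPT 3, KAT 2 and KPAT 5 they gave 1 higher and 2 lower in KPAT, and the non-SMAD branch gave 2 lower there. In these fits 2448 of all genes were called in KAT and 1728 in KPAT, beside 4805 and 2752 with all tumours.

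Activins signal through the same SMAD2 and SMAD3. Of 11 tested genes of activin-related ligands, their receptors and their antagonists, 4 were called higher in KPAT and 5 in KAT, with none lower. The shares called higher over all genes were 9.13% and 15.6%. Inhba, which encodes the activin A subunit, averaged 6.72 ± 2.89 (SD, n = 5) in KPT, 32.8 ± 20.7 in KPAT and 21.7 ± 12.6 in KAT. It rose by 2.14 in KPAT (adjusted p = 0.0117, limma) and 1.62 in KAT (adjusted p = 0.0247, limma), the KAT call being lost without KPT 1, KPT 3 or KAT 2 (up to 0.0614). Inha rose by 0.97 and 1.07 (0.0103 and 0.00300, limma), and the ligand gene Gdf11 rose by 1.40 in KPAT and 1.23 in KAT (adjusted p = 0.00938 and 0.00932, limma). Acvr2b, a type II activin receptor, rose by 0.73 in KPAT and 1.02 in KAT (adjusted p = 0.0180 and 0.00159, limma). Its KPAT call was lost with only KPT and KPAT fitted, with the ductal level, and without KPT 1 and KAT 1. Without KPT 3, KAT 2 and KPAT 5 the KPAT calls of Acvr2b and Gdf11 were both lost. Gdf11 lost its KAT call without KAT 4 and KAT 5 and with the endothelial level, and both its calls with the ductal level. Fstl3, an activin antagonist, rose by 1.17 in KAT (adjusted p = 0.00630, limma), and 47.3% of its exon bases lie opposite Prss57. With the fibroblast level in the model, which called 2.29% and 4.14% of all genes, none of the 11 passed. Inha was then at 1.11 ± 0.33 (SE) in KPAT and 1.24 ± 0.37 in KAT, and Inhba at 1.86 ± 0.76 and 1.28 ± 0.85. Without KAT 4 and KAT 5, 3 rather than 5 were higher in KAT, and without KPT 3, KAT 2 and KPAT 5, 2 rather than 4 in KPAT. All genes called went from 4805 to 2448 in KAT and from 2752 to 1728 in KPAT in these fits.

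Genes that TGF-beta is known to induce were called higher for 11 of 30 in KPAT and 15 of 30 in KAT and lower for 0 and 1, with medians of 0.58 and 0.81. The shares over all genes were 9.13% and 15.6% higher and 7.4% and 13.3% lower. Snai1, a repressor of epithelial genes, averaged 7.31 ± 2.69 (SD, n = 5) in KPT, 33.4 ± 14.1 in KPAT and 21.2 ± 5.68 in KAT (log2 fold changes 2.20 and 1.61, adjusted p = 0.00248 and 0.00401, limma). Postn, the matrix protein periostin, rose by 1.54 and 1.24 (0.00154 and 0.00101, limma), and Tgfbi by 0.99 and 1.40 (0.00388 and 0.000233, limma). The list holds Col1a1 and Col3a1, which are fibroblast markers too. With the fibroblast level in the model, 1 of the 30 was called higher and 1 lower in each comparison. In that model 2.29% of all genes were called in KPAT and 4.14% in KAT, in either direction. Without KAT 4 and KAT 5, 8 rather than 15 were called higher in KAT and none lower, and without KPT 3, KAT 2 and KPAT 5, 6 higher and 3 lower in KPAT and 14 higher and 6 lower in KAT. All genes called in KAT numbered 2448 and 4091 in these fits, beside 4805 with all tumours. In KPAT they numbered 1728 in the latter fit, beside 2752.

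**Figure D5:**
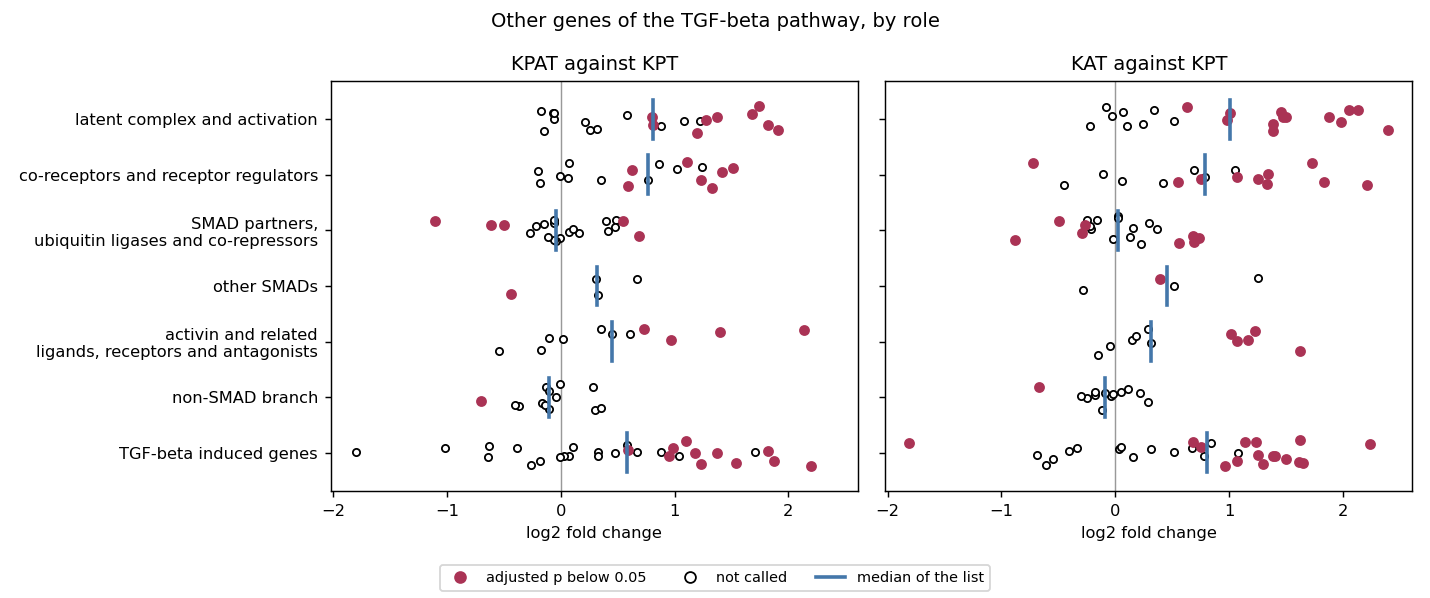
Log2 fold change (x axis) of every tested gene of 7 other TGF-beta pathway lists (y axis) in KPAT and KAT against KPT; filled points have an adjusted p below 0.05 (limma), open points do not, and the bar is the list's median. The bars lie at 0.81 and 1.01 for latent complex genes and near 0 for SMAD partners and the non-SMAD branch.

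In KPAT against KAT none of the 110 tested genes of the 7 lists was called by limma, edgeR or DESeq2, and 9 had an unadjusted p under 0.05 in limma. The 10 members had a median log2 fold change of -0.17 there, and Tgfbr3, at -1.03, was farthest from 0.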

How the data were processed

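RNA of whole tumours went into TruSeq libraries for a HiSeq4000, as the labels' protocols state. Alignment used HISAT2 2.0.4 and the build mm10 (GRCm38), as the submitters' processing notes list. How reads were counted and normalized is not given in the sources used here. Each deposited value is a signal per Ensembl gene, which the authors scaled by library, as judged from the values: undoing 1 factor for each library put 100% of values within 0.01 of a whole read number. Depth was 14696138 to 26248484 reads per library, so counting error weighs most on Tgfb2 and Tgfbr3.

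Symbols, coordinates and exon lengths came from GENCODE for GRCm38 (20585 of 20636 IDs). Values were multiplied by 19.478 in every library (reads per deposited unit, geometric mean), since the design had assumed values on the scale of reads. Then log2(value + 1) was fitted with limma 3.58.1 (R 4.3.3, group means, eBayes with trend) over all 15 libraries. Genes with a mean of at least 10 on that scale (16648) were tested two-sided, adjusted over all of them at 0.05 by Benjamini-Hochberg. Fold changes are on this log2 scale, while levels are as deposited. The script was tested on simulated data.

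The members, the gene lists and the tests were chosen with earlier results of these data known. Named were all members, then per list and comparison up to 3 called genes with the smallest p, and the 3 protein-coding genes most like each called member. An allele that all groups share and 2 genes are not reported here. Alternatives were other pseudocounts, minimums and scalings, array weights, robust eBayes, marker levels as covariates, the replicate block, single and grouped libraries left out, edgeR 4.0.16 and DESeq2 1.42.0 on recovered reads. Chosen after seeing the data were the endothelial, macrophage and 4-marker covariates and leaving out KAT 4 and KAT 5. Tables and plots were made in Python 3.11.15 (numpy 2.4.6, pandas 2.3.3, matplotlib 3.10.9).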

Additional observations from a re-analysis of the deposited data

Results flagged for a closer look

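In 30 groups of 5 tumours, 3 single tumours stood apart from the rest of their group by Dixon's criterion, which chance meets in about 1 in 20 groups. Tgfbr1 in KPAT 5 was at 205 against 141 to 158 in the other KPAT tumours. Smad2 in KPAT 3 was at 58.7 against 45.1 to 48.7. Smad7 in KPAT 3 was at 84.2 against 54.0 to 57.9.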

How the results depend on the processing

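The calls of Tgfb3 and Tgfbr2 in both comparisons with KPT, and of Tgfb2 in KAT, passed under each library left out, each scaling, pseudocount and minimum, array weights, edgeR and DESeq2, and were lost only with marker levels as covariates. Members called in KPAT against KPT numbered 0 with the fibroblast, the macrophage or the Pdgfra, Pdgfrb, Lum and Thy1 level as covariate and 1 with the ductal level. Some lost calls kept their size: Tgfb2 was at 0.98 in KPAT and 1.54 in KAT with the 4-marker level, Tgfbr2 in KPAT at 1.23 with the macrophage level, and Tgfb3 in KPAT at 1.06 with the ductal level. In KAT against KPT they numbered 0 with the fibroblast, macrophage or 4-marker level, 5 with DESeq2, and 3 to 6 with single libraries left out (6 without KPAT 3). Genes called in KPAT against KPT numbered 382 with the fibroblast level, 757 ductal, 192 with the 4 markers and 242 macrophage, 1811 with only those groups fitted, 1728 without KPT 3, KAT 2 and KPAT 5, and 1687 (without KPAT 2) to 2895 with single libraries left out. In KAT against KPT they numbered 690 fibroblast, 1627 ductal, 898 with the 4 markers, 1854 endothelial, 9 macrophage, and 2448 without KAT 4 and KAT 5. In KPAT against KAT the 8 calls became 4 on the deposited scale, 15 with only those groups fitted, 515 with array weights, 13 with the 4 markers, 13 endothelial, 17 without KPT 3, KAT 2 and KPAT 5, 284 with DESeq2, and 7 to 45 (without KAT 2) with single libraries left out. The cause of these shifts was not tested.

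Directions that reversed were of genes that had not been called. For Tgfbr3 in KPAT against KPT the log2 fold change was -1.37 with the fibroblast and with the 4-marker level, -0.38 endothelial, -0.04 macrophage, -0.1 without KPT 3, KAT 2 and KPAT 5, and -0.06 to 0.54 with single libraries left out. In KAT against KPT it was -0.67 fibroblast and -0.42 with the 4 markers. Tgfbr1 in KPAT against KAT was -0.01 without KPT 3, KAT 2 and KPAT 5, -0.05 without KPT 1 and KAT 1, and -0.05 to 0.22 with single libraries left out. Smad2 ran from -0.02 to 0.11 in both comparisons with KPT and from -0.06 to 0.05 in KPAT against KAT with single libraries left out, and was 0.01 with array weights and 0.06 without KPT 3, KAT 2 and KPAT 5 in the last. Smad3 in KPAT against KAT was -0.15 endothelial, -0.15 macrophage, -0.23 without KAT 4 and KAT 5, and -0.12 to 0.23 with single libraries left out. Smad4 in KAT against KPT was 0.12 fibroblast, 0.15 with the 4 markers, 0.0 endothelial, 0.01 without KPT 3, KAT 2 and KPAT 5, 0.07 without KAT 4 and KAT 5, and -0.16 to 0.04 with single libraries left out. Smad7 in KPAT against KPT was 0.04 fibroblast, 0.12 ductal, 0.2 with the 4 markers and 0.02 endothelial. In KAT against KPT it was -0.03 macrophage, 0.0 without KPT 3, KAT 2 and KPAT 5, -0.01 without KPT 1 and KAT 1, and -0.02 to 0.15 with single libraries left out. Cdkn2a in KAT against KPT was -0.45 with array weights and -0.1 without KPT 3, KAT 2 and KPAT 5, and in KPAT against KAT -0.11 without KAT 4 and KAT 5.

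With the replicate block, 2248 genes were called in KPAT against KPT, 4313 in KAT against KPT and 7 in KPAT against KAT. Under that block Tgfb2 in KPAT against KPT lost its call (adjusted p = 0.0686, limma), as did Eng (0.0546) and Smad1 (0.0811), and Tgfbr1 gained one (0.0488). No other call of a named gene changed. Of 15 same-numbered pairs, 5 had a correlation of deviations above 0.1, the highest being 0.246 for KPT 1 and KAT 1. Differently numbered pairs were not correlated for reference, so these values do not decide whether the numbers pair the samples.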
